A study of Homo sapiens with 6 samples.

Results

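The CEP genes encode centrosomal proteins, named by their approximate size, and 38 protein-coding genes of the RefSeq table (GRCh38.p14) carry a symbol made of CEP and digits, with or without a trailing letter or L1, out of 20037 coding genes. The peaks described here come from U-251 MG cells, an established line derived from a human glioblastoma, in which N6-methyladenosine (m6A) was mapped by antibody pull-down of fragmented RNA followed by sequencing. The knockdown groups carried a hairpin labelled shTRA2A, against the splicing regulator TRA2A, or shMETTL3, against the catalytic subunit of the m6A writer, and the control group carried shNC. Each group had 1 immunoprecipitated and 1 input library and is represented by 1 deposited peak list, so differences between groups stand without replicates and were not tested. The labels give no clone, hairpin sequence or time of knockdown. The lists hold no transcript levels, so neither the knockdowns nor the identity of the cell line could be checked from them.

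Centrosomes are built around a pair of centrioles and a surrounding protein matrix that nucleates microtubules. CEP proteins take part in building new centrioles, in dressing the older centriole with appendages, in linking centrosomes to each other and, in cells that leave the cycle, in forming the primary cilium. m6A is placed on adenosines in a short purine-rich sequence context by a complex around METTL3, and in human transcripts it is known to concentrate in long internal exons and around stop codons. Many CEP genes are long and have many exons.

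A peak was assigned to the coding gene whose RefSeq body it touched. Where several bodies were touched, it went to the one that held the whole peak and lay inside the others. By that rule the CEP genes held 12 of the 2515 coding-gene peaks of the shTRA2A list, 36 of 5019 in the shMETTL3 list and 47 of 8525 in the shNC list. The CEP peaks of the knockdown lists thus came to 25.5% and 76.6% of the control number in shTRA2A and shMETTL3, where over all coding genes the figures were 29.5% and 58.9%. The lists were therefore of unequal length, and a missing peak in a shorter list is no measure of lost methylation.

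Of the 38 CEP genes, 27 had a peak in at least 1 list and 11 had none. A peak was present in 9 of 38 genes in the shTRA2A list, 23.7% (exact binomial 95% interval, 11.4 to 40.2%), in 22 in the shMETTL3 list, 57.9% (40.8 to 73.7%), and in 21 in the shNC list, 55.3% (38.3 to 71.4%). Over all coding genes, expressed or not, the shares were 8.85%, 15.6% and 19.9%. The CEP genes had longer bodies, with a median of 66477 nt against 24115 nt for all coding genes. Among coding genes with a body of at least 30000 nt the shares were 13.2%, 22.2% and 27.9%, and among the 35 CEP genes of that length they were 25.7%, 62.9% and 60.0%. The intervals treat genes or peaks as independent and describe counting error only.

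**Figure D1:**
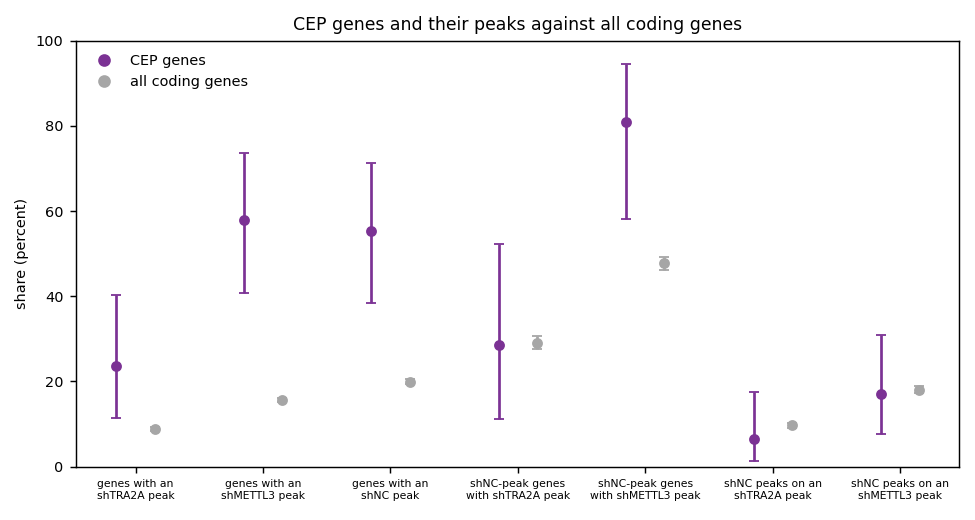
Shares in percent (vertical axis) for the CEP genes (purple) and all coding genes (grey), with exact binomial 95% intervals. The CEP genes stand above all coding genes in the shares of genes with a peak and in the share of shNC-peak genes with an shMETTL3 peak (81.0% against 47.7%), and close to them in the shares of shNC peaks that overlap a knockdown peak.

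The genes had peaks in different combinations of lists. These combinations were not counted over all coding genes, and the shTRA2A list is the shortest, with 2736 peaks against 5433 in shMETTL3 and 9206 in shNC. CEP44, CEP55, CEP97, CEP120, CEP128 and CEP170 had a peak in all 3 lists. CEP164 and CEP250 had peaks in both knockdown lists and none in shNC. CEP72 had peaks in the shTRA2A list alone, and CEP85, CEP112 and CEP131 in the shMETTL3 list alone. Among the 27 genes with a peak, the largest pattern held 11 genes, with a peak in shMETTL3 and in shNC but not in shTRA2A. They included CEP43, CEP70, CEP85L, CEP152, CEP162, CEP170B, CEP192, CEP290, CEP295 and CEP350. CEP57, CEP57L1, CEP89 and CEP95 had a peak in shNC alone. No peak was assigned to CEP15, CEP19, CEP20, CEP41, CEP63, CEP68, CEP76, CEP78, CEP83, CEP126 or CEP135. The median body length was 78951 nt in the 27 genes with a peak and 43616 nt in the 11 without.

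**Figure D2:**
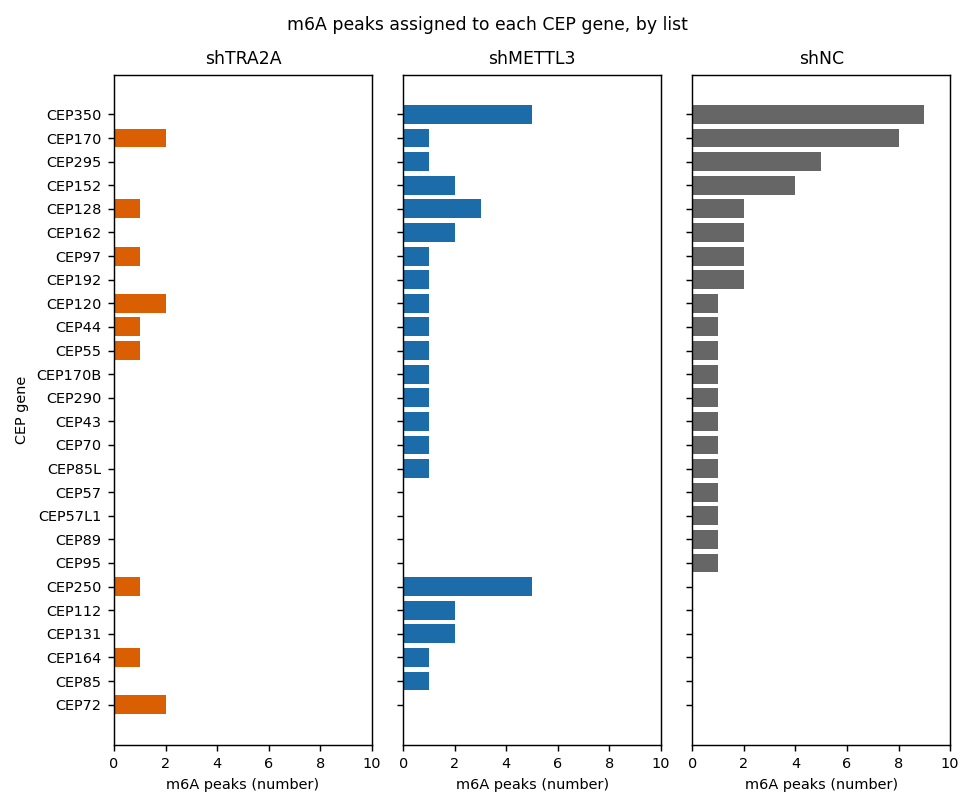
Number of m6A peaks (horizontal axis) assigned to CEP genes with a peak in at least 1 list (rows, 1 gene not shown), in shTRA2A, shMETTL3 and shNC. CEP350 and CEP170 have the most shNC peaks (9 and 8), and CEP250 has 5 shMETTL3 peaks and none in shNC.

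At the level of genes, the share of control CEP genes that also had a peak was near that of coding genes at large for shTRA2A and above it for shMETTL3. Of the 21 CEP genes with an shNC peak, 6 were also marked in shTRA2A, 28.6% (11.3 to 52.2%), against 29.1% of all coding genes with an shNC peak. For shMETTL3 the count was 17 of 21, 81.0% (58.1 to 94.6%), against 47.7% of all coding genes. The comparison was also made within broad classes of body length and, separately, of shNC peak number, a choice made after the data were seen. The classes were not combined, and genes within a class still differ in length and peak number. Among coding genes with a body of at least 30000 nt, as all 21 CEP genes have, the shares were 33.1% for shTRA2A and 52.3% for shMETTL3. Among shorter coding genes they were 22.6% and 40.3%. Of CEP genes with 1 shNC peak 9 of 13 had an shMETTL3 peak, against 36.4% of coding genes with 1 shNC peak, and of those with 2 or more all 8 did, against 59.5%. When only regular peaks were kept, that is 1 block, a multiple of 25 nt and at most 1000 nt wide, the shTRA2A count was 1 of 15, against 23.6% of all coding genes, and the shMETTL3 count was 8 of 15, 53.3%, against 42.0%. In reverse, 6 of the 9 CEP genes of the shTRA2A list had a control peak, 66.7%, against 65.6% of all coding genes of that list, and 17 of the 22 of the shMETTL3 list did, 77.3%, against 60.9%.

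At the level of positions the shares were lower. For control peaks found they were near the background with all peaks and below it with regular peaks alone. In reverse they were below the background with all peaks, though their intervals include it. A control peak was taken as found where a knockdown peak of the same strand covered 1 or more of its bases. Of the 47 CEP control peaks, 22 lay in CEP350, CEP170 and CEP295, and peaks of the same gene are not independent. Of all 47, 3 were found in shTRA2A, 6.38% (1.34 to 17.5%), against 9.65% of all coding control peaks. In shMETTL3, 8 were found, 17.0% (7.65 to 30.8%), against 18.0%. In reverse, 3 of 12 shTRA2A peaks lay on a control peak, 25% (5.49 to 57.2%), against 34.6% over all coding genes, and 8 of 36 shMETTL3 peaks, 22.2% (10.1 to 39.2%), against 33.1%. Of the 17 CEP genes with peaks in both shMETTL3 and shNC, 7 had an overlapping pair and 10 did not. Over all coding genes with peaks in both, 59.3% had one, where these 17 gave 41.2%. With regular peaks alone, 0 of 31 control peaks were found in shTRA2A and 3 of 31 in shMETTL3, against 8.26% and 16.5% over all coding genes. Within the better-scoring 50% of each list, 3 of 19 were found in shTRA2A, 15.8%, against 11.8%. For shMETTL3 it was 4 of 19, 21.1%, against 19.1%. There 3 of 5 shTRA2A peaks lay on a control peak, 60%, against 41.7%, and 4 of 17 shMETTL3 peaks, 23.5%, against 34.8%. With all lists brought to equal length by score, each of these shares was below the background.

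Knockdown peaks that missed the control peaks often lay far from them. For each knockdown peak in a gene with a control peak on the same strand, the gap to the nearest one was measured. In shMETTL3, 12 of 25 such CEP peaks were more than 1000 nt away, 48.0%, against 28.5% over all coding genes, and the median gap of those without overlap was 17002 nt, against 1722 nt. In shTRA2A, 5 of 8 were more than 1000 nt away, against 30.1% over all coding genes. The gaps run along the gene body, introns included. They were not compared within genes of like length, and CEP bodies are longer, with a median of 66477 nt against 24115 nt for all coding genes. The knockdown lists also shared few positions with each other. Of the 12 shTRA2A peaks, 1 lay on an shMETTL3 peak, 8.33% (0.211 to 38.5%), against 23.9% over all coding genes.

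Among the genes that act in centriole duplication, the 13 listed members had 4 peaks in shTRA2A, 9 in shMETTL3 and 18 in shNC. Of these control peaks, 1 was found in shTRA2A and 3 in shMETTL3, against 9.65% and 18.0% over all coding genes. CEP295, which converts new centrioles into centrosomes, lies at chr11:93661682-93730358 on the plus strand. It had no shTRA2A peak, 1 shMETTL3 peak and 5 shNC peaks. The shMETTL3 peak at chr11:93698528-93698652 had a score of 8.40 and lay 1375 nt from the control peak at chr11:93700028-93700102. The other control peaks on the gene's strand were a wide one at chr11:93691952-93695592 (score 12.1) and the strongest at chr11:93727198-93727522 (score 23.5, rank 1514 of 9206), near the 3′ end. Control peaks at chr11:93727204-93727453 (score 20.4) and chr11:93727479-93727528 (score 11.2) were on the minus strand, opposite to CEP295 and facing its own peak. The body of TAF1D, which encodes a subunit of an RNA polymerase I transcription factor and is read from the minus strand, has its 3′ end 2665 nt further on, and which transcript these 2 peaks belong to was not tested.

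CEP152, a scaffold that recruits the duplication kinase PLK4, lies at chr15:48729083-48811069 on the minus strand and had 0, 2 and 4 peaks in shTRA2A, shMETTL3 and shNC. The shMETTL3 peaks were a wide one at chr15:48784118-48788897 (score 11.9) and a 50 nt one at chr15:48788923-48788972 (score 8.84), both in the 5′ part of the gene. The control peaks, with scores from 8.61 to 11.5, lay at relative positions from 0.536 to 0.878, where 0 is the 5′ and 1 the 3′ end of the body. The nearest shMETTL3 and control peaks were 17002 nt apart, so the lists marked separate parts of the gene. CEP192, which brings PLK4 and pericentriolar material to the centriole, had 0, 1 and 2 peaks. Its control peaks at chr18:13049037-13049261 (score 18.8) and chr18:13049287-13049461 (score 14.1) were 25 nt apart, and the shMETTL3 peak at chr18:13069122-13069171 (score 6.57) lay 19660 nt away. CEP63, the binding partner of CEP152, had no peak in any list.

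CEP97 caps the distal end of the centriole together with CP110. It lies at chr3:101724614-101770562 on the plus strand and had 1, 1 and 2 peaks in shTRA2A, shMETTL3 and shNC. The shMETTL3 peak at chr3:101765056-101765280 (score 8.71) covered most of the control peak at chr3:101765106-101765330 (score 15.5) and met the other control peak, which ended at position 101765055, without sharing a base. The shTRA2A peak was a wide one at chr3:101759426-101762547 (score 7.30), 2433 nt away from these.

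CEP44, needed for centriole-to-centrosome conversion, gave the same wide peak in every list, at chr4:174304287-174308780 with 4494 nt and identical ends. Its score was 8.41 in shTRA2A, 11.3 in shMETTL3 and 13.7 in shNC, but scores of different lists are on scales that cannot be compared. By rank it stood at 892 of 2736, 1262 of 5433 and 3894 of 9206. No other CEP peak had the same ends in all 3 lists.

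CEP120, which promotes procentriole elongation, lies at chr5:123344892-123423842 on the minus strand and had a peak in each list at a different place. The shTRA2A peaks at chr5:123382087-123382136 (score 7.59) and chr5:123382187-123382747 (score 7.72) were close together in the middle of the gene. The shMETTL3 peak at chr5:123401797-123401896 (score 8.60) lay inside the body of KRT8P33, a pseudogene. The control peak at chr5:123346690-123349973 was wide, with a score of 19.6, and its midpoint lay 3.44 kb from the 3′ end. The gaps to it were 32113 and 32213 nt for the shTRA2A peaks and 51823 nt for the shMETTL3 peak.

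The remaining duplication genes had few peaks. CEP57, a partner of CEP63, and its paralog CEP57L1 had 1 control peak of 50 nt each, at chr11:95812953-95813002 (score 11.9) and chr6:109160618-109160667 (score 9.07), and no knockdown peak. An shTRA2A peak at chr11:95831072-95832939 on the minus strand touched both CEP57 and MTMR2 and was assigned to neither. CEP85, which binds the duplication factor STIL, had 1 wide shMETTL3 peak at chr1:26272359-26274978 (score 8.86) and no control peak.

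CEP85L, a CEP85 relative linked to neuronal migration, was counted on a peak of the opposite strand. The gene (chr6:118460772-118710089) lies on the minus strand, and its only peaks, identical in shMETTL3 and shNC, were at chr6:118565685-118574583 on the plus strand, 8899 nt wide, with scores of 12.2 and 21.3. They start 4 nt inside the body of LOC107986524, a long non-coding RNA gene on the plus strand (chr6:118565681-118582298). The RefSeq window around the start of that RNA shows where the peaks begin. It is given 5′ to 3′ on the plus strand (GRCh38.p14, chr6:118565431-118565730), with the bases inside the peak in capitals.
LOC107986524 window: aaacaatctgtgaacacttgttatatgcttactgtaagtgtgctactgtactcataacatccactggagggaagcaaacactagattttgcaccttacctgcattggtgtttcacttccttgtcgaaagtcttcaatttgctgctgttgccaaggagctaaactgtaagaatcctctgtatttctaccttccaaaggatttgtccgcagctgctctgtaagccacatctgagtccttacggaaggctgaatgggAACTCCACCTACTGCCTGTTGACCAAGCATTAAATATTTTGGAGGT
With only peaks on the strand of the gene kept, a choice made after the data were seen, CEP85L drops out, and 7 of 43 control peaks were found in shMETTL3, against 18.1% over all coding genes. In that setting 16 of 20 control genes had an shMETTL3 peak, against 47.4%.

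The 8 members that belong to the appendages and the linker had 5, 11 and 12 peaks in shTRA2A, shMETTL3 and shNC. In each knockdown 1 control peak was found, against 9.65% in shTRA2A and 18.0% in shMETTL3 over all coding genes. CEP170 marks the subdistal appendages of the mother centriole and anchors microtubules there. It lies at chr1:243124428-243255785 on the minus strand and had 2 shTRA2A peaks, 1 shMETTL3 peak and 8 shNC peaks. A cluster of its control peaks on the minus strand ran from position 243164305 to 243166079. The strongest on the gene's strand was at chr1:243165580-243166004, 425 nt wide, with a score of 47.6 and rank 327 of 9206. Others on that strand were at chr1:243165005-243165304 (score 16.2), chr1:243166030-243166079 (score 11.8) and chr1:243164305-243164379 (score 10.9). None of these had an overlapping peak on the same strand in either knockdown list.

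The strongest CEP peak of the control list lay over most of that cluster on the other strand. It was at chr1:243164693-243168367 on the plus strand, 3675 nt wide, with a score of 105 and rank 44. The shTRA2A list held the same region, also on the plus strand, at chr1:243164693-243168317, with a score of 11.8 and rank 202 of 2736, and it was the strongest CEP peak there. No RefSeq gene other than CEP170 lies under it, and the transcript it belongs to was not tested. With strand ignored, the control CEP peaks found in shTRA2A number 6 of 47, 12.8%, in place of 3. The shTRA2A plus-strand peak then also covers 3 minus-strand peaks of the cluster, all but the one at chr1:243164305-243164379. The other shTRA2A peak, at chr1:243169732-243172723 on the minus strand (score 7.75), lay 3652 nt from the nearest control peak.

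Further towards the 5′ end CEP170 had control peaks at chr1:243191093-243191367 (score 24.1) and chr1:243186375-243186424 (score 10.1). The shMETTL3 peak, at chr1:243185925-243185999 (score 8.13), lay 375 nt from the weaker of these. A wide control peak at chr1:243128838-243135814 (score 11.6) stood near the 3′ end. CEP170P1, a transcribed pseudogene of CEP170, had no peak in any list, and how reads matching several places were treated is not stated in those sources. CEP170B, the paralog, had 1 shMETTL3 peak at chr14:104887962-104889597 (score 7.66) and 1 control peak at chr14:104886437-104886486 (score 8.33), 1475 nt apart.

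**Figure D3:**
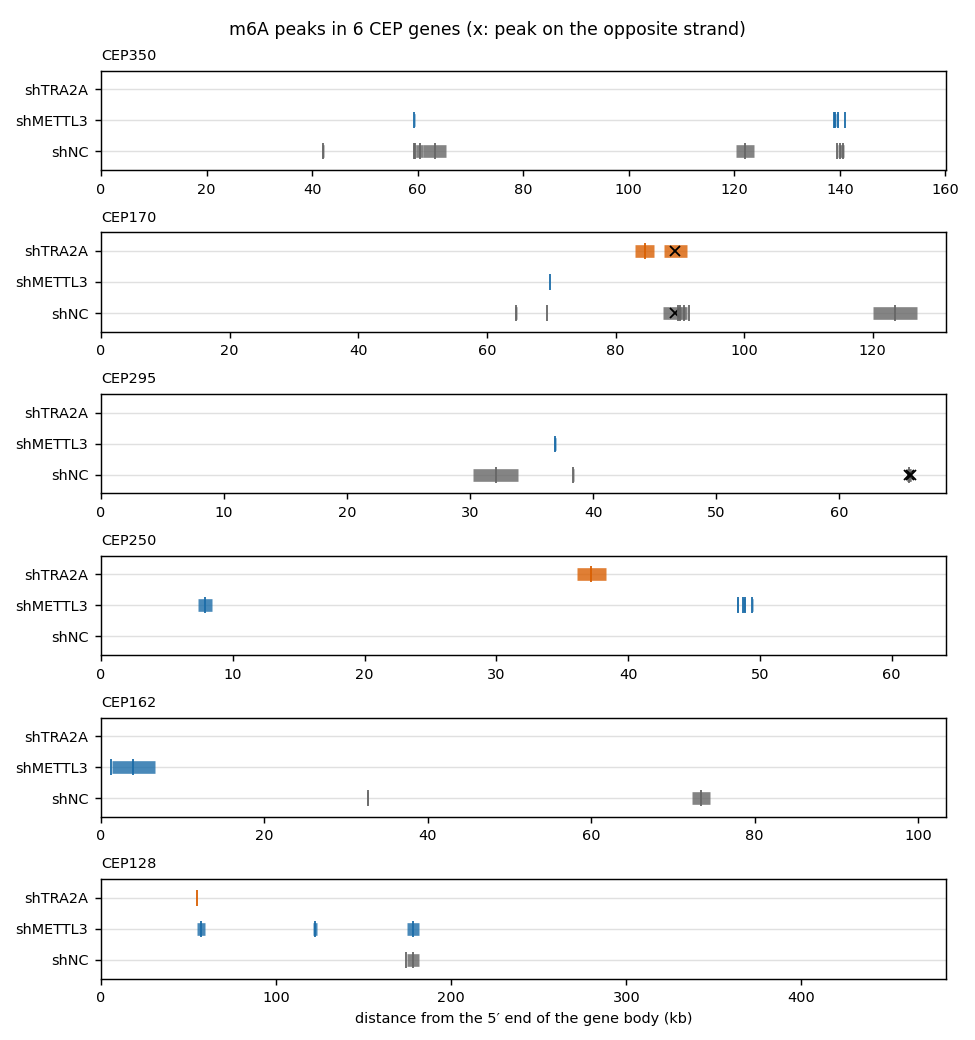
Peaks in CEP350, CEP170, CEP295, CEP250, CEP162 and CEP128 (panels) by distance from the 5′ end of the gene body in kb, with shTRA2A above shMETTL3 and shNC; bars span the peaks, ticks mark midpoints and crosses mark peaks on the opposite strand. The CEP350 lists share a cluster near 140 kb, while the CEP162 peaks of shMETTL3 and shNC stand in separate parts of the gene.

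CEP250, also known as C-NAP1, anchors the linker that holds centrosomes together. It lies at chr20:35455165-35519280 and had 1 shTRA2A, 5 shMETTL3 and 0 shNC peaks, all on the plus strand. In shMETTL3, 4 of them formed a cluster at chr20:35503438-35503537, chr20:35503888-35503962, chr20:35503988-35504062 and chr20:35504563-35504612, with scores from 7.20 to 8.10. The fifth was a wide one at chr20:35462538-35463608 (score 9.86). These scores bracket the median of the shMETTL3 list, 8.40. The shTRA2A peak at chr20:35491297-35493478 (score 7.69) was also wide and lay apart from all of them. CEP250 and CEP350 had the most shMETTL3 peaks of the CEP genes.

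CEP128, a subdistal appendage protein, has a body of 482534 nt (chr14:80476969-80959502, minus strand) and had 1, 3 and 2 peaks in shTRA2A, shMETTL3 and shNC. A wide shMETTL3 peak at chr14:80778035-80784982 (score 7.53) lay within the control peak at chr14:80778010-80785007 (score 14.8), each end 25 nt inside it. Another shMETTL3 peak, at chr14:80900009-80904816 (score 9.36), ended where the shTRA2A peak at chr14:80904817-80904891 (score 7.78) began. That pair was counted as not overlapping, and the nearest control peak lay 114501 nt from the shMETTL3 peak of the pair. A remaining shMETTL3 peak was at chr14:80836336-80838276 (score 8.56) and a control peak at chr14:80785458-80785507 (score 9.32).

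The distal appendage genes were sparse. CEP164, needed for docking of the centriole to the membrane, was marked at chr11:117392502-117392551 in shTRA2A (score 7.55) and at chr11:117328127-117328201 in shMETTL3 (score 7.82), with no control peak, at relative positions 0.773 and 0.0698 of the body. CEP89, another distal appendage gene, had 1 control peak at chr19:32970029-32970153 (score 9.17), 1.87 kb from the 5′ end, and no knockdown peak. CEP83, of the same structure, and the linker gene CEP68 had no peak.

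The 12 members that act in the cilium, its transition zone or the satellites, small granules around the centrosome, had 2, 12 and 14 peaks in shTRA2A, shMETTL3 and shNC. All 5 with a control peak also had an shMETTL3 peak and none had an shTRA2A peak, against 47.7% and 29.1% of all coding genes with a control peak. CEP350, a large protein that anchors microtubules at the centrosome, had the most control peaks of all CEP genes. It lies at chr1:179954810-180114875 on the plus strand and had 0 shTRA2A, 5 shMETTL3 and 9 shNC peaks. A 5′ group of control peaks ran from chr1:180013946-180014170 (score 24.3) and chr1:180014221-180014445 (score 27.8) through wide peaks at chr1:180014496-180015863 (score 9.87) and chr1:180015889-180020216 (score 26.5). The shMETTL3 peak at chr1:180014146-180014220 (score 7.11) overlapped the first of these and ended where the next began.

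A 3′ group in CEP350 was marked in both lists. It held control peaks at chr1:180094265-180094389 (score 11.4), chr1:180094615-180095169 (score 8.61) and chr1:180095195-180095618 (score 11.4). The shMETTL3 peaks there were at chr1:180093665-180093789 (score 7.63), chr1:180093940-180093989 (score 7.74), chr1:180094340-180094439 (score 8.96) and chr1:180095694-180095768 (score 12.8, rank 909 of 5433). Of these 4, 1 overlapped a control peak, and the others lay 75, 275 and 475 nt from one. The overlap count leaves out those 3, although both lists marked the group. The remaining control peaks were at chr1:179996725-179996974 (score 18.9) and chr1:180075064-180078479 (score 11.9). CEP43, also known as FOP, a binding partner of CEP350, had 1 shMETTL3 peak at chr6:167004323-167004397 (score 7.24) and 1 control peak at chr6:167040031-167040080 (score 8.65), 35633 nt apart.

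CEP162, which binds axonemal microtubules and takes part in assembly of the transition zone, held the strongest CEP peak of the shMETTL3 list. It lies at chr6:84124250-84227643 on the minus strand and had 0, 2 and 2 peaks in shTRA2A, shMETTL3 and shNC. The strong peak, at chr6:84221095-84226359, was 5265 nt wide with a score of 76.2, rank 5 of 5433. Next to it was a 50 nt peak at chr6:84226385-84226434 (score 8.45), 1.23 kb from the 5′ end. The control peaks, at chr6:84194982-84195056 (score 9.30) and chr6:84153133-84155325 (score 8.91), lay further 3′, the nearer at a distance of 26038 nt. No shTRA2A or shNC peak of the same strand touched the strong peak. Every other CEP peak of the shMETTL3 list had a score of 12.8 or less.

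CEP290, a transition zone protein mutated in several ciliopathies, lies at chr12:88049016-88142088 on the minus strand and also had its peaks near the 5′ end. The shMETTL3 peak at chr12:88139177-88139529 (score 7.81) and the control peak at chr12:88136694-88139176 (score 10.2) met end to end. They share no base and so count as not found, although no base separates them. In all, 5 pairs of CEP peaks from different lists met in this way, in CEP97, CEP290, CEP350, CEP55 and CEP128. Such pairs were not counted over all coding genes.

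CEP131 and CEP72, both satellite proteins, had knockdown peaks alone. CEP131 had shMETTL3 peaks at chr17:81191268-81192517 (score 7.84) and chr17:81192760-81193966 (score 11.1), both near the 3′ end, and none in shTRA2A or shNC. CEP72 had shTRA2A peaks at chr5:647831-647905 (score 8.94) and chr5:653002-653076 (score 8.04), and none in shMETTL3 or shNC. CEP19, CEP20, CEP41, CEP78 and CEP126 had no peak.

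Of the other members, CEP55, which recruits the abscission machinery to the midbody in the last step of cell division, was marked inside the control peak by both knockdown lists. It lies at chr10:93496612-93529092 on the plus strand. The control peak at chr10:93515503-93517156 was 1654 nt wide with a score of 34.8, rank 680 of 9206, the strongest CEP control peak after those of CEP170. Its 3′ end held both the shTRA2A peak at chr10:93516982-93517031 (score 8.11) and the shMETTL3 peak at chr10:93517032-93517156 (score 12.8, rank 904 of 5433). The knockdown peaks met end to end. CEP70, which interacts with gamma-tubulin, had a wide control peak at chr3:138531590-138537002 (score 16.3) with a 50 nt shMETTL3 peak at its 5′ edge, at chr3:138536953-138537002 (score 8.27). CEP95 had 1 control peak at chr17:64537869-64537918 (score 7.96), at the very 3′ end of the body.

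CEP112 had shMETTL3 peaks at chr17:65826461-65826510 (score 8.19) and chr17:65851821-65851895 (score 7.43) and none in shTRA2A or shNC. Of the 38 CEP genes, 33 have a promoter window in the RefSeq table, which covers 250 bases before and 50 after an annotated start. Among these 33, the first CEP112 peak is the only CEP peak inside a window of its own gene. The peak lies from 10 to 59 nt before an internal start, at position 65826451, and 366 kb inside the gene body. The window is given 5′ to 3′ on the minus strand (GRCh38.p14, chr17:65826402-65826701), with the peak in capitals.
CEP112 window: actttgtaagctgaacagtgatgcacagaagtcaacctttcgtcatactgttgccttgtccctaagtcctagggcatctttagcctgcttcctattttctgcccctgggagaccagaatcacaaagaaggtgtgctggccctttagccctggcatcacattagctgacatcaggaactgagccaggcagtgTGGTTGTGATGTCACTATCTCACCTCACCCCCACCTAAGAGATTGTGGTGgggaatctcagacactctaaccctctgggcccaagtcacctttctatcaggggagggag
Both printed windows were searched on both strands for AAAC or AGAC or GAAC or GGAC, the 4 words of 2 purines followed by AC at the core of the m6A context. No such word lies whole in the bases inside the CEP112 peak or in the part of the LOC107986524 window inside the CEP85L peak. A GAAC does span the edge of the CEP85L peak, with only its G outside. Words starting with T, such as the TGAC in the capitals of that window, were not searched for. The part searched holds 46 of the 8899 nt of the CEP85L peak. Of the 35116 windows of the table, 70.3% hold a word in the stretch at the place of the CEP112 peak, and 99.9% hold one anywhere in the 300 bases. Only these windows were searched, since no genome sequence was used here.

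**Figure D4:**
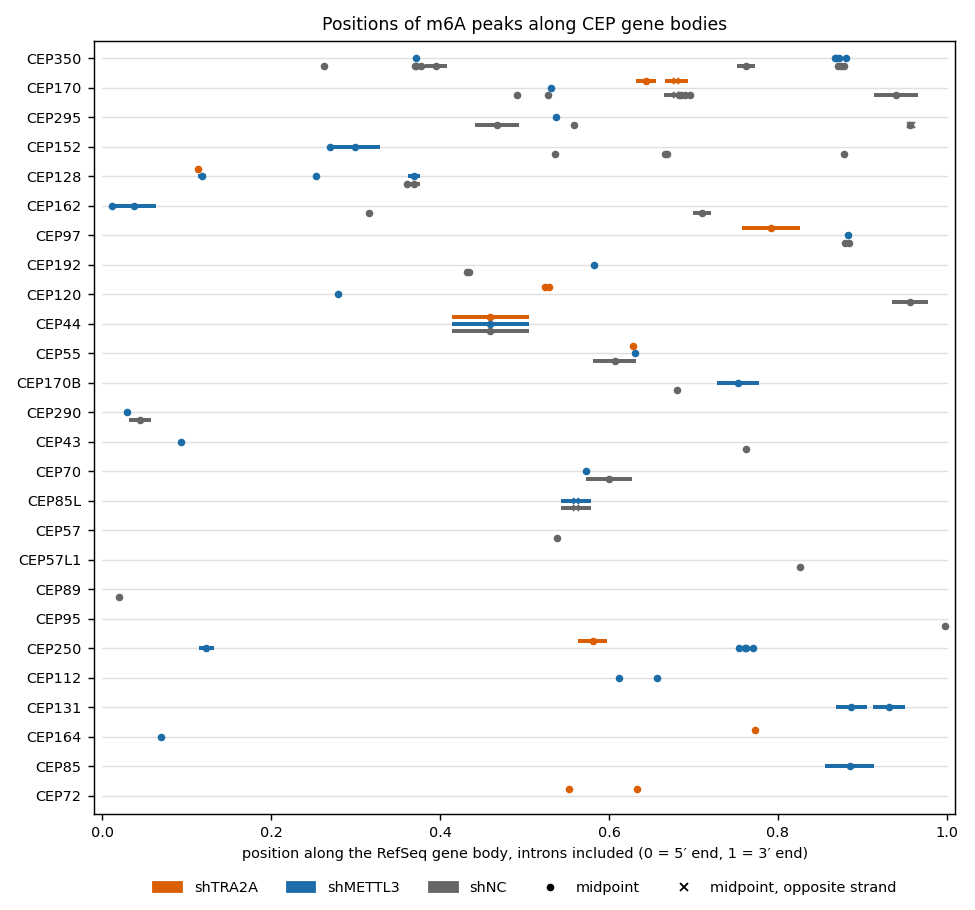
Position of CEP peaks along the gene body (1 gene not shown) (horizontal axis, 0 for the 5′ and 1 for the 3′ end, introns included) in shTRA2A, shMETTL3 and shNC; points mark midpoints, bars the span and crosses the opposite strand. Identical spans are seen in CEP44 in all 3 lists and in CEP85L in shMETTL3 and shNC, while in CEP152 and CEP43 the lists mark different parts of the gene.

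CEP peaks lay less far towards the 3′ end than peaks of coding genes in general. The median relative position was 0.604 in shTRA2A, 0.567 in shMETTL3 and 0.667 in shNC for CEP peaks, against 0.701, 0.725 and 0.791 for all coding-gene peaks. In the last 25% of the body lay 16.7%, 36.1% and 31.9% of the CEP peaks in shTRA2A, shMETTL3 and shNC, against 44.4%, 46.8% and 54.8% of all. Within 5 kb of the 3′ end there were 0 of 12 CEP peaks in shTRA2A, 2 of 36 in shMETTL3 and 5 of 47 in shNC, against 31.8%, 35.2% and 42.7% of all coding-gene peaks. A window of 5 kb is a smaller part of the CEP bodies, with a median of 66477 nt against 24115 nt for all coding genes. No share within genes of like length was computed. In the first 25% lay 1 of 12 shTRA2A, 7 of 36 shMETTL3 and 2 of 47 shNC peaks, that is 8.33%, 19.4% and 4.26%, against 17.1%, 16.2% and 12.6% of all coding-gene peaks. The shMETTL3 peaks there are those of CEP43, CEP128, CEP162, CEP164, CEP250 and CEP290. The positions include introns, so a place in the body does not give the place in the transcript, and peaks of the same gene are not independent.

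Peaks that were not regular made up 6 of 12 CEP peaks in shTRA2A, 14 of 36 in shMETTL3 and 16 of 47 in shNC, where the shares over all coding genes were 33.4%, 30.3% and 19.5%. The files do not say how these spans arose, and their part in the values above is given by the counts with regular peaks alone. Peaks on the strand opposite to the gene numbered 1 of 11, 1 of 29 and 4 of 45 among the CEP genes whose direction the table gives, against 4.95%, 4.72% and 4.55% over all coding genes.

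CEP peaks were not among the strong peaks of their lists as a rule. The median score was 7.76 in shTRA2A, 8.23 in shMETTL3 and 11.7 in shNC for CEP peaks, where the lists as wholes had medians of 8.0, 8.40 and 12.4. In the better-scoring 50% of their own list stood 5 of 12, 17 of 36 and 19 of 47 CEP peaks.

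**Figure D5:**
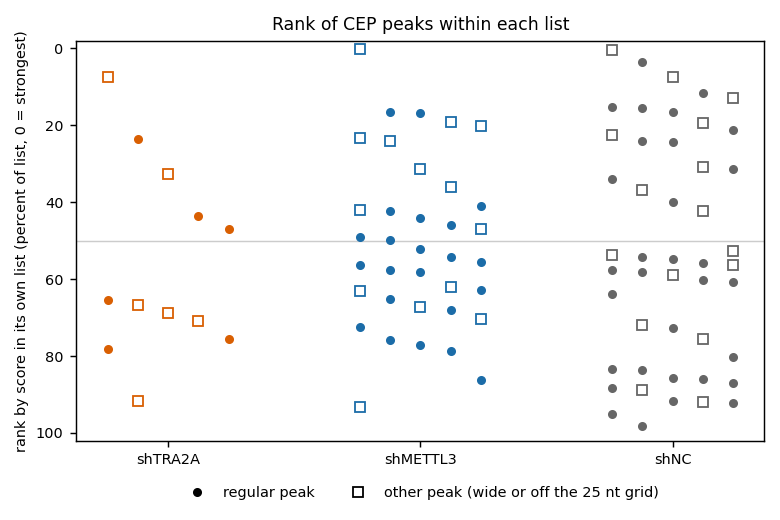
Rank of each CEP peak by score in its own list, in percent of the list (vertical axis, 0 for the strongest peak), for shTRA2A, shMETTL3 and shNC; filled circles are regular peaks and open squares other peaks. The strongest peaks, of CEP162 in shMETTL3 (rank 5) and CEP170 in shNC (rank 44), are open squares.

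Other genes of the centrosome and cilium, from 5 lists with 119 coding genes outside the CEP genes, gave a peak in 13 genes in shTRA2A, 33 in shMETTL3 and 39 in shNC. Their median body was 56249 nt. Over all coding genes the shares with a peak were 8.85%, 15.6% and 19.9%. Among coding genes with a body of at least 30000 nt they were 13.2%, 22.2% and 27.9%. Of the 39 genes marked in shNC, 7 were marked in shTRA2A, 17.9%, and 19 in shMETTL3, 48.7%, where all coding genes gave 29.1% and 47.7%. By list, the control genes with an shMETTL3 peak were 3 of 7 for other centriole duplication genes, 6 of 12 for the pericentriolar matrix and gamma-tubulin, 4 of 6 for satellites, 4 of 7 for appendages and linker and 2 of 7 for the transition zone and ciliopathy genes. With shTRA2A the counts were 1, 2, 2, 1 and 1 in the same order.

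Peak numbers of the genes with the most control peaks varied. AKAP9, a matrix scaffold, had 3, 1 and 14 peaks in shTRA2A, shMETTL3 and shNC, and ASPM, a spindle pole protein, had 0, 8 and 6. ALMS1, the gene of Alström syndrome, had 1, 0 and 8, and STIL, a duplication factor, had 0, 1 and 5. PLK4, the kinase that starts centriole duplication, had 0, 0 and 3, and TTC28 had 0, 0 and 6. CCDC14, a satellite protein, had 1, 3 and 5. TTBK2, the kinase that starts ciliogenesis at the mother centriole, had 0, 3 and 4. Of the 95 control peaks of all 119 genes, 7 were found in shTRA2A and 14 in shMETTL3, against 9.65% and 18.0% over all coding genes.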

How the data were processed

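Antibody pull-down and input libraries of U-251 MG cells were made for shTRA2A, shMETTL3 and shNC, 6 libraries in all. Per the submitters' processing notes the build was GRCh38, and the tools listed, with no roles, are featureCounts 2.0.1, SAMtools and HISAT2 2.2.1. No source used here gives the peak caller or the read depth, so no precision beyond counting of peaks can be stated. The deposited lists are BED files with 12 columns and no header. Column 5 is a score that the authors' caller gave each peak, on a scale that is not stated, so it was used only within a list. Of 4 lists, 1 has a name that matches no label and equals the shTRA2A list byte for byte, and it was left out.

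Genes were those of the RefSeq table (GRCh38.p14), which holds no exons. Gene direction came from the RefSeq promoter table for 33 of the 38 CEP genes and otherwise from the strand of the peak. Coordinates count from 1. Overlap needed 1 shared base on the same strand. The code (Python 3.11.15, numpy 2.4.6, pandas 2.3.3, scipy 1.17.1) was tested on simulated data and differed from bedtools 2.31.1 for 0 peaks. Shares carry exact Clopper-Pearson 95% intervals. Alternatives changed the strand rule, the overlap rule, the score limit, the peak shape, merging and the assignment to genes. The members, gene lists and roles were chosen with earlier results of these data known. Counts cover all CEP genes, of which 1 is not reported here by itself. Scores and positions were required for genes with the most or the strongest control peaks, with peaks in all lists, with overlapping peaks, or with knockdown peaks alone, and are given for others too. In the other lists up to 3 genes with the most control peaks qualified for naming.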

Additional observations from a re-analysis of the deposited data

How the results depend on the processing

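Of 111 values of 13 results under 10 alternatives, 85 stayed within 1.5 times the reported count or median position and 26 did not. Some values could not move, since gene counts do not use the strand rule and the equal-length setting leaves the shTRA2A list whole. The median position ranged from 0.581 to 0.628 in shTRA2A, 0.460 to 0.621 in shMETTL3 and 0.561 to 0.668 in shNC. For position the limit is wider than the gap to all coding genes, so keeping within it does not show that the gap held. The medians over all coding genes ranged from 0.701 to 0.743, 0.723 to 0.763 and 0.765 to 0.812 in the same order. In what follows the share over all coding genes stands in parentheses. With strand ignored, 6 control CEP peaks were found in shTRA2A (9.95%), 3 of them under the plus-strand CEP170 peak. With midpoints within 100 nt in place of overlap, 5 control peaks were found in shMETTL3 (14.5%), 5 shMETTL3 peaks lay on control (25.2%) and 2 shTRA2A peaks on shMETTL3 (20.6%). With regular peaks alone, 0 of 31 control peaks were found in shTRA2A (8.26%) and 3 of 31 in shMETTL3 (16.5%). In that setting 1 of 15 control genes were marked in shTRA2A (23.6%) and 8 in shMETTL3 (42.0%), and 5 and 14 CEP genes had a peak in those lists (6.11% and 11.4%). Of the regular peaks, 0 of 6 in shTRA2A and 3 of 22 in shMETTL3 lay on control (35.4% and 35.1%), and 0 of 6 in shTRA2A lay on shMETTL3 (25.1%). In the better-scoring 50% of each list, 3 of 19 control peaks were found in shTRA2A (11.8%) and 4 in shMETTL3 (19.1%). In that setting 3 of 5 shTRA2A peaks (41.7%) and 4 of 17 shMETTL3 peaks (34.8%) lay on control. There 3 of 11 control genes were marked in shTRA2A (24.9%) and 8 in shMETTL3 (41.4%), and 4, 13 and 11 CEP genes had a peak in shTRA2A, shMETTL3 and shNC (4.73%, 9.14% and 11.8%). With all lists brought to equal length by score, 2 of 13 control peaks were found in shTRA2A (22.3%) and 2 in shMETTL3 (25.9%). In that setting 2 of 12 shTRA2A peaks (24.9%) and 2 of 17 shMETTL3 peaks (28.3%) lay on control. There 3 of 7 control genes were marked in shTRA2A (44.1%) and 5 in shMETTL3 (49.2%), and 13 and 7 CEP genes had a peak in shMETTL3 and shNC (9.20% and 7.86%). The regular, better-scoring and equal-length settings hold fewer peaks by construction, and other causes were not tested. Keeping only peaks on the strand of the gene, and the background of bodies of at least 30000 nt, were chosen after seeing the data. No paired analysis was possible because each group has 1 peak list. With 1 list a group and no stated depth, an absent peak may be an undetected one, and intervals cover counting error only.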
